A study of Mus musculus with 7 samples.

Results

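The core circadian clock genes measured in mouse nasal tissue were Arntl, Clock, Npas2, Per1, Per2, Per3, Cry1, Cry2, Nr1d1 and Nr1d2, chosen by name. Earlier results of these data were known when they were chosen. A probe counted as a member when its transcript accession mapped to one of these symbols through RefSeq gene names, and each of the 10 genes had 1 probe on the array, out of 32095 genes or transcripts with a probe. Of these, 20664 passed the filter on dim signals and were tested, among them 9 of the 10 clock genes. Cry1 did not pass and is described by its signals only.

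The study compared nasal tissue, taken with the septum and turbinates, of female BALB/c mice that inhaled diesel exhaust particles (DEP) with that of control mice, on Agilent mouse 4x44K arrays that hold 2 samples each, labelled with different dyes. The mice were 6 weeks old at the start. DEP was suspended in saline and nebulized into a closed chamber at 100 µg/m3, 1 hour per day on 5 days of the week, and for the exposure of 4 weeks the methods give nebulized saline as the control treatment. That of the 8-week controls is not given in the sources used here. There were 4 arrays after 4 weeks of exposure and 3 arrays after 8 weeks. DEP RNA carried the dye Cy5 and control RNA the dye Cy3 on every array, so dye and exposure to DEP cannot be told apart. Each exposure time had a slide of its own, so the slide, the length of exposure and the age of the mice cannot be told apart either. The labels call the arrays biological replicates. How many mice stood behind an array, and the hour of the day at which the tissue was taken, are not given in the sources used here. Per array, DEP RNA gave 18601 to 25069 probes well above background and control RNA gave 16985 to 26927, with 0 saturated spots. Precision is limited by the few arrays.

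The circadian clock is a feedback loop of transcription that runs in most cells of the body and times their genes to the day. BMAL1, the protein of Arntl, pairs with CLOCK or its relative NPAS2 and activates genes through the DNA element called the E-box. Among these are the Period and Cryptochrome genes, whose proteins return to the nucleus and repress the pair, and Nr1d1 and Nr1d2, which encode the nuclear receptors REV-ERB alpha and REV-ERB beta and repress Arntl through the ROR response element. Transcripts of Arntl and transcripts of the genes it activates therefore peak at different times of the day, and the nasal mucosa has a clock of its own.

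The promoter stretches that hold a clock element are shown first, because these are the elements through which the factors of the loop act. RefSeq promoter sequence (GRCm38.p6) was at hand for 9 of the 10 clock genes, with 13 start sites, and the 250 bases before each start were searched on both strands for the E-box CACGTG, its variant CACGTT, the D-box TTATGTAA, the core of the ROR response element TAGGTCA and the cAMP response element TGACGTCA. The 6-letter E-box reads the same on both strands and no match of a motif overlapped a match of another. At least 1 of them was found before 5 of the 13 start sites, in Per1, Per3, Cry1, Cry2 and Nr1d1. In the following stretches, written 5′ to 3′ on the strand of the gene, capitals mark the matched motif (AACGTG is CACGTT read on the other strand).
Per1: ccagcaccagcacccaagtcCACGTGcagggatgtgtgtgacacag
Per3: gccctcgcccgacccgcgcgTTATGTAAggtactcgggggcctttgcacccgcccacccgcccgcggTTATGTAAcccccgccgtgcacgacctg
Cry1: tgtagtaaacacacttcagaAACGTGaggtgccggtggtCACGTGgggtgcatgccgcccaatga
Cry2: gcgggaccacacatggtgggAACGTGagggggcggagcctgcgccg
Nr1d1: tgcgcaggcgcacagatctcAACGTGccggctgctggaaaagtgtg
The Per1 stretch lies at chr11:69098763-69098808 on the plus strand and holds an E-box at 161 to 166 bases before the start. The Per3 stretch lies at chr4:151044796-151044890 on the minus strand and holds 2 D-boxes, the nearer at 151 to 158 and the farther at 198 to 205 bases before the start. The Cry1 stretch, at chr10:85185089-85185153 on the minus strand, holds the variant at 74 to 79 and an E-box at 55 to 60 bases before the start. Cry2, at chr2:92434210-92434255 on the minus strand, and Nr1d1, at chr11:98775380-98775425 on the minus strand, each hold the variant only, at 161 to 166 and at 23 to 28 bases before the start. Among all 32851 promoters of the table, 6.02% held the E-box, 3.85% its variant, 0.819% the D-box, 2.23% the core of the ROR response element and 1.55% the cAMP response element. The 250-base windows of Arntl, Clock, Npas2 and Nr1d2 held none of these motifs. Bases past the start or farther upstream were not searched, so this does not show that a gene lacks an element. A match is a description of sequence and not a bound site.

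After 4 weeks, Arntl and Clock, of the activating arm, were lower in DEP than in control, and Per1, Cry2 and Nr1d2, of the repressing arm, were higher. After 8 weeks the pattern was turned in part: Arntl, Clock and Npas2 were higher in DEP, Npas2 against a control signal near the floor of the array, and Cry2, Nr1d1 and Nr1d2 were lower. Npas2 and Nr1d1 were not called at 4 weeks, and Per1 was not called at 8 weeks. A gene was called when its Benjamini-Hochberg adjusted p in limma, over all probes tested, was at most 0.05. By this rule 5 of 9 clock genes were called at 4 weeks, where 38.1% of all genes were called, and 6 of 9 at 8 weeks, where 37.3% were. The calls at 4 weeks were 3 higher (21.7% of all genes) and 2 lower (16.4%), and those at 8 weeks were 3 higher (20.4%) and 3 lower (16.9%). Of the 9 genes, 4 (Arntl, Clock, Cry2 and Nr1d2) were called at both times with opposite directions, as were 6.07% of all genes, and 0 were called at both times with the same direction, as were 13% of all genes. In size, the clock genes had a median absolute log2 ratio of 0.38 at 4 weeks against 0.17 over all genes tested, and of 0.46 at 8 weeks against 0.18. Because the genes were chosen with earlier results of these data known, such sizes, here and below, are not independent evidence.

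**Figure D1:**
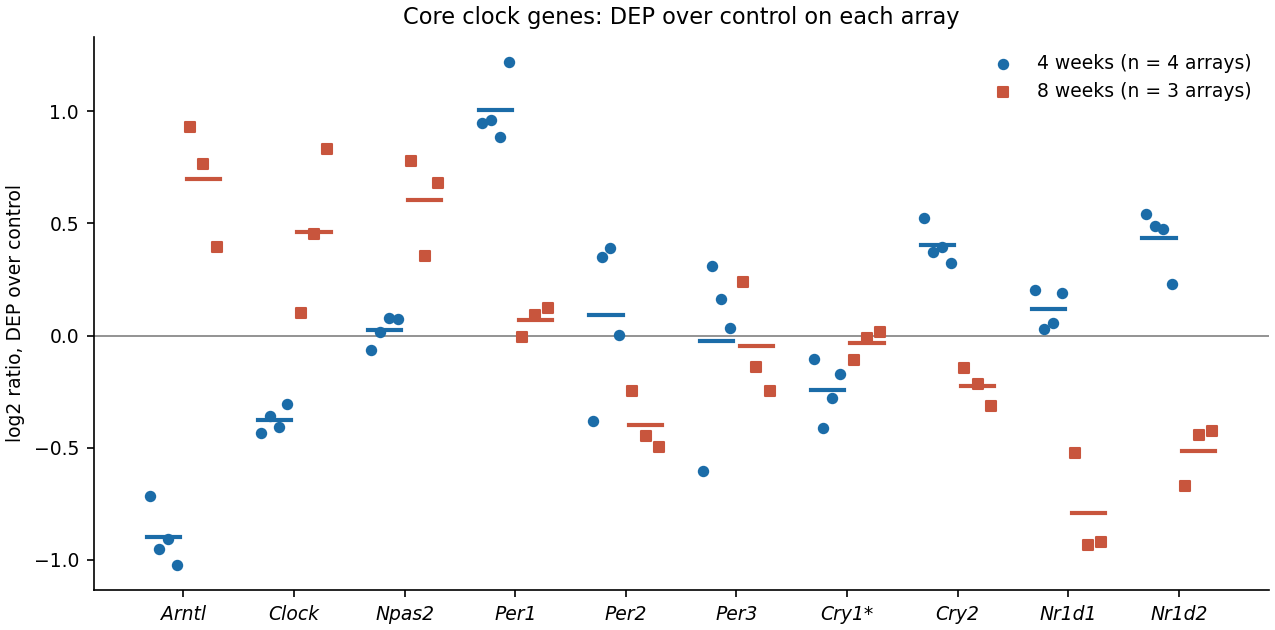
Log2 ratio of DEP over control for each clock gene, 1 point per array and a line at the mean, with circles for the 4 arrays at 4 weeks and squares for the 3 arrays at 8 weeks. Arntl lies between -1.02 and -0.72 at 4 weeks and between 0.39 and 0.93 at 8 weeks, and the asterisk marks Cry1, which was not tested.

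Arntl encodes BMAL1, the partner that the activating complex cannot do without. Its log2 ratio of DEP over control was -0.72, -0.95, -0.91 and -1.02 on the 4 arrays at 4 weeks and 0.93, 0.77 and 0.39 on the 3 arrays at 8 weeks. Every 4-week array was below 0 and every 8-week array above it. The mean was -0.90 ± 0.13 (SD, n = 4) at 4 weeks, a level 1.86-fold lower in DEP (limma adjusted p = 0.000283), and 0.70 ± 0.27 (SD, n = 3) at 8 weeks, 1.62-fold higher (limma adjusted p = 0.00174). The difference of 1.60 between the times (95% confidence interval 1.28 to 1.91, limma adjusted p = 0.000203) placed Arntl at rank 186 by size among the 20664 genes tested. Arntl and Per1 are on the list that the study selected from its 4-week arrays, so their 4-week values are not independent evidence. In bulk tissue, fewer cells of a type and less RNA per cell cannot be told apart.

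Clock encodes the partner of BMAL1 that gave the system its name. Its log2 ratio was -0.43, -0.36, -0.41 and -0.31 at 4 weeks and 0.10, 0.45 and 0.83 at 8 weeks. The 4-week arrays lay close together below 0, and the 8-week arrays were all above 0 but spread widely. The mean was -0.38 ± 0.06 (SD, n = 4) at 4 weeks (limma adjusted p = 0.0233) and 0.46 ± 0.36 (SD, n = 3) at 8 weeks (limma adjusted p = 0.0187), a difference of 0.84 (95% confidence interval 0.48 to 1.20, limma adjusted p = 0.00647). The call at each single time was a narrow one. At 4 weeks it was lost without any one of the 4 arrays of that time (adjusted p 0.0682, 0.0607, 0.0630 and 0.0517 without replicates 1, 2, 3 and 4), and at 8 weeks it was lost without replicate 2 (0.47, adjusted p = 0.0824) or replicate 3 (0.28, adjusted p = 0.0697).

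Npas2, a relative of Clock that can take its place beside BMAL1, showed a ratio near 0 at 4 weeks and a positive one at 8 weeks. The log2 ratio was -0.06, 0.02, 0.08 and 0.07 at 4 weeks and 0.78, 0.36 and 0.68 at 8 weeks, so the times did not overlap. At 4 weeks the mean was 0.03 with a 95% confidence interval of -0.14 to 0.19 (limma adjusted p = 0.792), and at 8 weeks it was 0.60 ± 0.22 (SD, n = 3, limma adjusted p = 0.00114). The difference between the times was 0.58 (limma adjusted p = 0.00677). The DEP signal was well above background on 3 of 4 arrays at 4 weeks and 3 of 3 at 8 weeks, but the control signal on 1 of 4 and 1 of 3, so Npas2 passed the filter through its DEP signal, its control level was mostly not measured, and no fold is given. The offset of 50 in the background correction compresses ratios of such dim probes, and with the scanner's processed signals the log2 ratio at 8 weeks was 2.04 (adjusted p = 0.00348).

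Among the Period genes, which encode inhibitors that shuttle back to the nucleus, Per1 was higher in DEP at 4 weeks. The log2 ratio of Per1 was 0.95, 0.96, 0.88 and 1.22 at 4 weeks and -0.01, 0.09 and 0.12 at 8 weeks. All 4-week arrays were far above all 8-week arrays. The mean at 4 weeks was 1.00 ± 0.15 (SD, n = 4), or 2.01-fold higher in DEP (limma adjusted p = 2.89e-05). In the main processing, Per1 was the 1 clock gene that also passed the study's own limits of an unadjusted p of at most 0.01 and a 2-fold change, which 1.3% of all genes passed at 4 weeks. The side of the 2-fold limit depended on the processing. Median centring gave 0.91 for Per1, and the processed signals gave -1.17 for Arntl (limma adjusted p = 0.000339), which is on the study's list. At 8 weeks its mean was 0.07 with a 95% confidence interval of -0.10 to 0.24 (limma adjusted p = 0.502), and centring each array on its median instead of loess turned it to -0.23 (adjusted p = 0.0250) and the processed signals to -0.083, so no direction is given for that time. The difference between the times was -0.93 (95% confidence interval -1.16 to -0.71, limma adjusted p = 0.000456). At 8 weeks 0 of 9 clock genes passed both limits in the main processing, which 2.94% of all genes passed, while 7 of 9 had an unadjusted p under 0.05 (47% of all genes) and 0 passed both limits in the methods' t-test. With the processed signals, Nr1d1 (-1.13, limma adjusted p = 0.000638) was past 2-fold at 8 weeks. The Npas2 value was 2.04 (limma adjusted p = 0.00348), but its control signal was well above background on 1 of 3 arrays, so no fold is given.

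Per2 was dimmer, and its arrays at 4 weeks did not agree in sign. The log2 ratio of Per2 was -0.38, 0.35, 0.39 and 0.00 at 4 weeks and -0.25, -0.45 and -0.50 at 8 weeks. Replicate 1 at 4 weeks stood apart through its control signal, whose log2 intensity was 7.26 against 6.42, 6.37 and 6.68 on the other 3 arrays. The control signal was well above background on 2 of 4 arrays at 4 weeks, replicates 1 and 4. The ratios of 0.35 and 0.39 thus rest on control signals that were not. At 8 weeks the DEP signal was well above background on 2 of 3 arrays and the control signal on 3 of 3. The mean was 0.09 at 4 weeks (95% confidence interval -0.20 to 0.38, limma adjusted p = 0.588) and -0.40 at 8 weeks (95% confidence interval -0.73 to -0.07, limma adjusted p = 0.0630), and neither was called. Without 4-week replicate 1 the 4-week mean was 0.25 (limma adjusted p = 0.0751), and the 8-week value of -0.40 had a limma adjusted p of 0.0145. The difference between the times was then -0.65 (limma adjusted p = 0.0116) in place of -0.49 (limma adjusted p = 0.0883). Since 2 of the 3 arrays kept at 4 weeks had control signals near background, these sizes are uncertain. Among the 15 alternatives for the 8-week value, it was called in 4: without 4-week replicate 1, without 4-week replicate 3 (adjusted p = 0.0484), with the 8-week arrays fitted alone (adjusted p = 0.00521) and in the methods' t-test after Benjamini-Hochberg (adjusted p = 0.0216).

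Per3, the least essential of the 3 Period genes for the rhythm itself, gave no call in any comparison. Its log2 ratio was -0.60, 0.31, 0.16 and 0.04 at 4 weeks and 0.24, -0.14 and -0.25 at 8 weeks, and the times overlapped. The mean was -0.02 at 4 weeks (95% confidence interval -0.36 to 0.32) and -0.05 at 8 weeks (95% confidence interval -0.44 to 0.34), with limma adjusted p values of 0.911 and 0.860. Replicate 1 at 4 weeks again stood apart by its control signal, at 7.03 against 6.06 to 6.25 on the log2 scale, and the 4-week mean without it was 0.17 (adjusted p = 0.233). The signal was well above background on 1 of 4 DEP and 1 of 4 control arrays at 4 weeks and on 1 of 3 and 2 of 3 at 8 weeks, so its level lay near the limit of measurement.

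The Cryptochromes are the partners of the Period proteins and the strongest repressors of the loop. Cry2 was well above background in both channels on every array, and its log2 ratio was 0.52, 0.37, 0.39 and 0.32 at 4 weeks and -0.14, -0.22 and -0.31 at 8 weeks. Every array at 4 weeks was above 0 and every array at 8 weeks below. The mean was 0.40 ± 0.09 (SD, n = 4), 1.32-fold higher in DEP, at 4 weeks (limma adjusted p = 0.000960) and -0.23 ± 0.09 (SD, n = 3), 1.17-fold lower, at 8 weeks (limma adjusted p = 0.0218). The difference was -0.63 (95% confidence interval -0.81 to -0.44, limma adjusted p = 0.00118). The 8-week call was lost without replicate 2 (-0.23, adjusted p = 0.0930) or replicate 3 (-0.18, adjusted p = 0.103) of that time.

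Cry1 was at the floor. Its DEP signal was not well above background on any of the 7 arrays, and its control signal was so on 1 of 4 arrays at 4 weeks and 1 of 3 at 8 weeks. The signal minus background was 3.5 to 9.5 in DEP and 20 to 28.5 in control at 4 weeks, and 4.5 to 8 in DEP and 14.5 to 18 in control at 8 weeks. The log2 intensities averaged 6.13 in DEP and 6.37 in control at 4 weeks, and 6.15 and 6.19 at 8 weeks, and no fold is given because both samples lay mostly below the limit. With no filter on dim probes, the fit on these signals gave -0.24 at 4 weeks (adjusted p = 0.0269) and -0.03 at 8 weeks (adjusted p = 0.826).

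Nr1d1 and Nr1d2, whose receptors silence Arntl, were both lower in DEP than in control at 8 weeks. The log2 ratio of Nr1d1 was 0.20, 0.03, 0.05 and 0.19 at 4 weeks and -0.52, -0.93 and -0.92 at 8 weeks. Its 4-week arrays were all slightly above 0, and its 8-week arrays were all well below. The mean at 4 weeks was 0.12 with a 95% confidence interval of -0.06 to 0.30 (limma adjusted p = 0.250), and at 8 weeks it was -0.79 ± 0.23 (SD, n = 3), 1.73-fold lower in DEP (limma adjusted p = 0.000407). The difference between the times was -0.91 (95% confidence interval -1.18 to -0.64, limma adjusted p = 0.00123). With the processed signals, the 4-week value was 0.43 and passed the threshold (adjusted p = 0.0130).

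For Nr1d2 the log2 ratio was 0.54, 0.49, 0.48 and 0.23 at 4 weeks and -0.67, -0.44 and -0.43 at 8 weeks. The times did not overlap and differed in sign on every array. The mean was 0.43 ± 0.14 (SD, n = 4), 1.35-fold higher in DEP, at 4 weeks (limma adjusted p = 0.00223) and -0.51 ± 0.14 (SD, n = 3), 1.43-fold lower, at 8 weeks (limma adjusted p = 0.00189). The difference of -0.95 (95% confidence interval -1.19 to -0.71, limma adjusted p = 0.000586) stood beside -0.91 for Nr1d1.

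Together, the effect of DEP differed between 8 and 4 weeks in 7 of 9 clock genes, with 3 more positive and 4 more negative at 8 weeks. Npas2 is among the 3, but it passed the filter through its DEP signal. Its control signal was mostly not well above background, so the size of its difference is not measured. Of all genes tested, 30.9% were called in that difference, 14.8% more positive and 16.1% more negative. The median absolute difference was 0.84 over the clock genes and 0.23 over all genes tested. The log2 ratios of the 2 exposure times did not overlap in the same 7 genes, as in 41.6% of all genes. In the main processing, Arntl was the 1 clock gene whose difference passed both the unadjusted p of 0.01 and the 2-fold limit, which 3.06% of all genes passed. With median centring, Per1 (-1.14), Nr1d1 (-1.07) and Nr1d2 (-1.10) were past 2-fold too (limma adjusted p = 0.000156, 0.000722 and 0.000374). With the processed signals these genes were again past it, as was Clock (1.10, limma adjusted p = 0.00320).

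A ratio on a 2-colour array does not say which of its samples moved, so the levels of each channel were compared between the times in a model of single channels. The median absolute log2 difference of the clock genes between the times was 0.52 in control, against 0.20 over all genes, and 0.29 in DEP, against 0.24 over all genes, and the sizes in the 2 channels were not tested against each other. In the control channel 6 of 9 clock genes were called (30.9% of all genes), 4 higher at 8 weeks (20.5% of all genes) and 2 lower (10.4%). In the DEP channel 4 of 9 were called (43.5% of all genes), 3 higher (25%) and 1 lower (18.5%). In the DEP channel 0 of 9 passed both the unadjusted p of 0.01 and the 2-fold limit (5.13% of all genes) in limma, while 6 of 9 had an unadjusted p under 0.05 (50.7% of all genes).

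**Figure D2:**
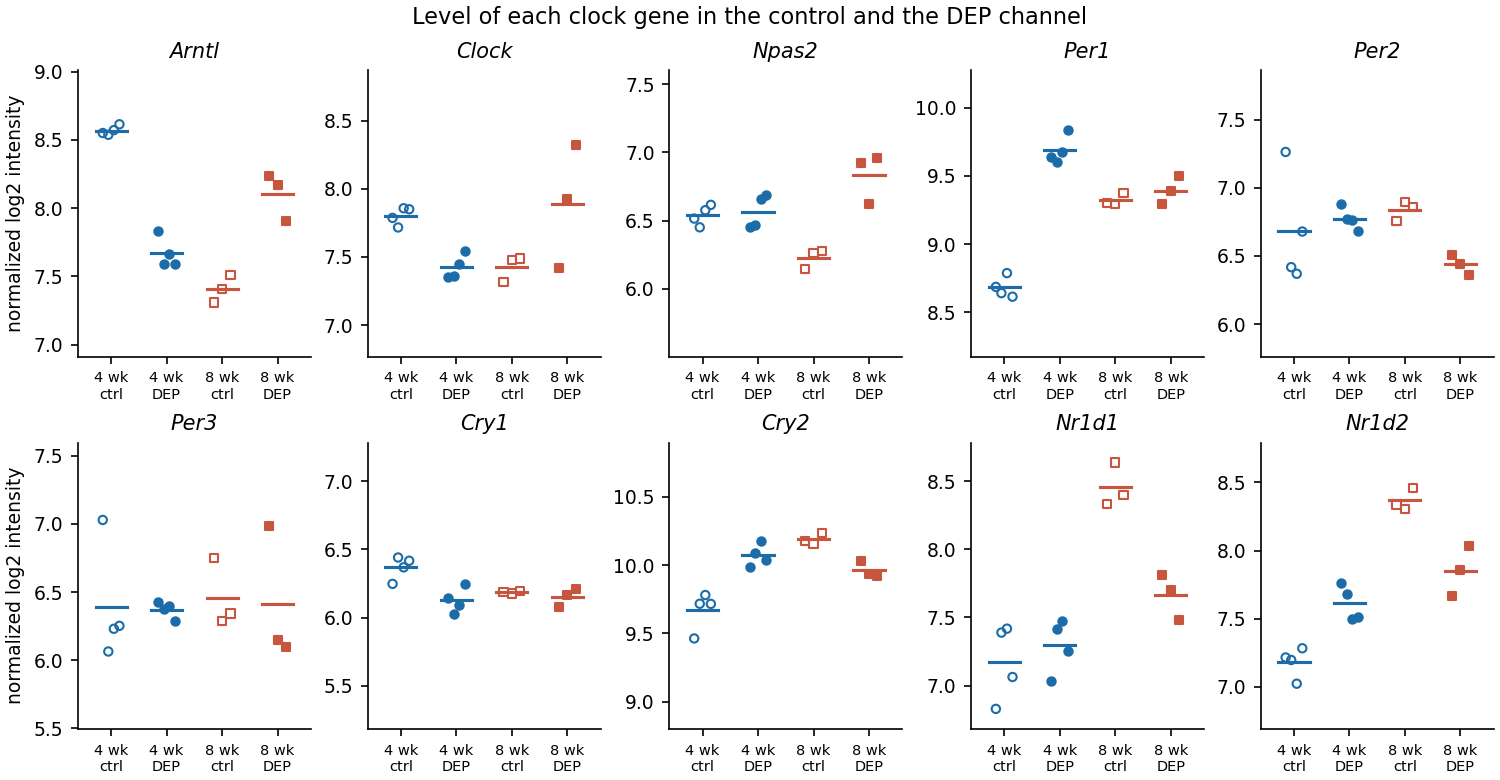
Normalized log2 intensity of each clock gene on each array, in the control channel (open symbols) and the DEP channel (filled symbols) at 4 weeks (circles, 4 arrays) and 8 weeks (squares, 3 arrays), with lines at the means and axes that all span the same range. The control level of Arntl falls from a mean of 8.57 to 7.41, and those of Nr1d1 and Nr1d2 rise from 7.17 to 8.46 and from 7.18 to 8.37.

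Arntl was highest in the controls of 4 weeks, with log2 intensities of 8.55, 8.54, 8.57 and 8.61, and lowest in the controls of 8 weeks, with 7.31, 7.40 and 7.51. The DEP samples lay between them, at 7.83, 7.59, 7.66 and 7.59 after 4 weeks and at 8.24, 8.17 and 7.91 after 8 weeks. None of these 4 sets of arrays overlapped. In control the log2 level differed by -1.16 between 8 and 4 weeks (95% confidence interval -1.38 to -0.94, limma adjusted p = 2.53e-06), and in DEP it was higher by 0.44 (95% confidence interval 0.21 to 0.66, limma adjusted p = 0.00413).

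The REV-ERB genes went the other way in the controls. Nr1d1 read 6.83, 7.39, 7.42 and 7.06 in the controls of 4 weeks and 8.33, 8.64 and 8.40 in those of 8 weeks, a rise of 1.28 on the log2 scale (95% confidence interval 0.98 to 1.58, limma adjusted p = 1.59e-05). Nr1d2 rose by 1.19 (95% confidence interval 0.98 to 1.40, limma adjusted p = 1.26e-06), from 7.02 to 7.28 on the 4-week arrays to 8.30 to 8.46 on the 8-week arrays. In DEP the same genes differed by 0.37 (limma adjusted p = 0.0504) and 0.24 (limma adjusted p = 0.0657), and neither was called. Arntl, Nr1d1 and Nr1d2 were the 3 clock genes that passed both the unadjusted p of 0.01 and the 2-fold limit in the controls, which 2.75% of all genes passed.

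Per1 and Cry2 also rose in the controls, by 0.64 (95% confidence interval 0.47 to 0.81, limma adjusted p = 3.92e-05) and 0.52 (95% confidence interval 0.36 to 0.68, limma adjusted p = 0.000174). Per1 read 8.69, 8.64, 8.79 and 8.61 in the 4-week controls and 9.30, 9.30 and 9.37 in the 8-week controls. In DEP, Per1 was at 9.60 to 9.83 after 4 weeks and at 9.29 to 9.50 after 8 weeks, a difference called at -0.29 (limma adjusted p = 0.00821). That call was lost with background parameters fitted on every spot (-0.21, adjusted p = 0.207) and without 8-week replicate 1 (-0.24, adjusted p = 0.0577). Cry2 in DEP differed by -0.11 with a 95% confidence interval of -0.27 to 0.06 (limma adjusted p = 0.277). At 8 weeks the Per1 level of the control and DEP channels thus overlapped, whereas at 4 weeks they did not. The rise of Cry2 in the controls was 0.25 (adjusted p = 0.0714) without normalization between arrays.

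The control levels of Clock differed by -0.37 (95% confidence interval -0.70 to -0.05, limma adjusted p = 0.0838), which was not called, and its DEP levels by 0.46 (limma adjusted p = 0.0259). Npas2 is counted among the calls in both channels, with -0.31 in control (limma adjusted p = 0.0257) and 0.27 in DEP (limma adjusted p = 0.0375), but its control signals were mostly not well above background and these values do not measure a fall. Per2 and Per3 were called in neither channel.

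The calls of Arntl, Clock and Npas2 in the DEP channel depended on the settings, being made in 9, 6 and 4 of 11 alternatives. All 3 were lost without normalization between arrays (0.29, 0.33 and 0.21, adjusted p 0.0803, 0.0866 and 0.106), and 1 of 3 was called with background parameters fitted on every spot. Clock was lost without 4-week replicate 1 (adjusted p = 0.0597) or 2 (0.0709) or 8-week replicate 2 (0.0956) or 3 (0.136, value 0.25). Npas2 was lost without 4-week replicate 1 (adjusted p = 0.0880) or 2 (0.115) or 8-week replicate 1 (0.128) or 3 (0.179), and with quantile normalization of the single channels (0.0585). The control call of Npas2 was lost without 4-week replicate 3 (adjusted p = 0.0544) or 4 (0.0666) or 8-week replicate 1 (0.0963), and with that quantile normalization (0.0646).

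**Figure D3:**
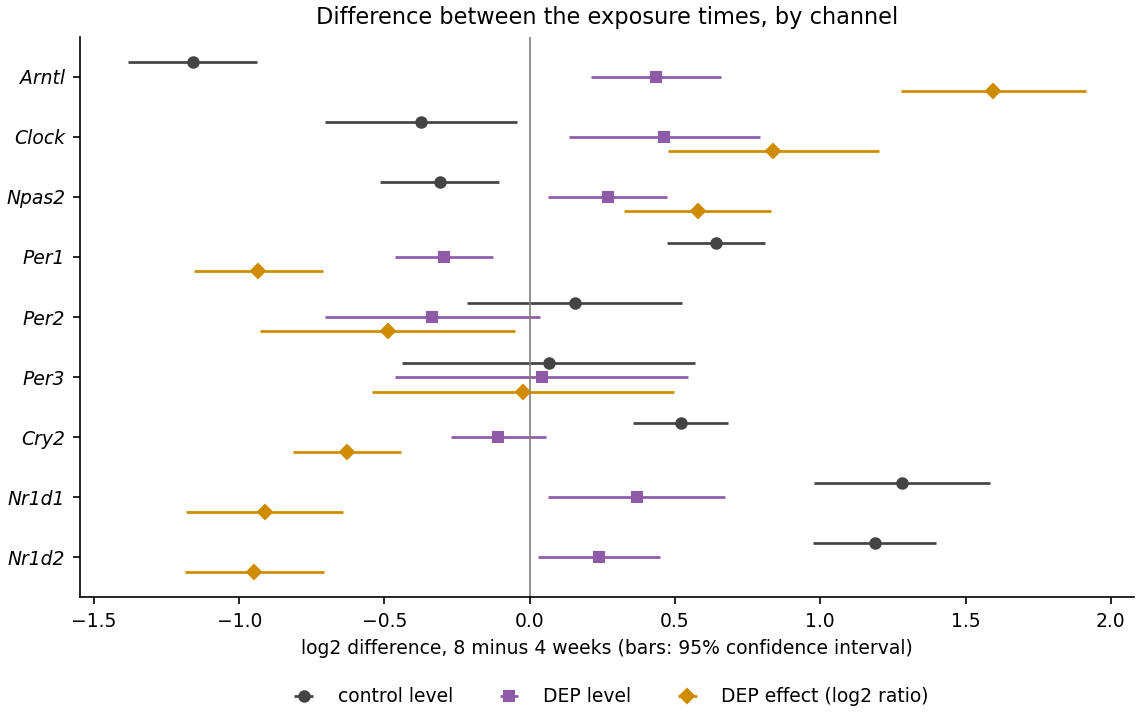
Log2 difference between 8 and 4 weeks for the 9 tested clock genes, with 95% confidence intervals, for the control level (circles), the DEP level (squares) and the DEP effect, which is the log2 ratio (diamonds). The control level of Arntl differs by -1.16 and those of Nr1d1 and Nr1d2 by 1.28 and 1.19, while the DEP levels of the 9 genes stay between -0.34 and 0.46.

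By array, the control levels of the 2 times did not overlap in 7 of 9 clock genes (43.8% of all genes) and the DEP levels in 4 of 9 (45.6% of all genes). The 7 include Npas2, whose control signals were mostly not well above background. The median SD of the log2 ratio was 0.13 over the clock genes and 0.12 over all genes at 4 weeks, and 0.22 and 0.11 at 8 weeks. The widest were Per3 at 4 weeks (0.40) and Clock at 8 weeks (0.36).

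The genes around this core were read from a list of 25 further clock genes, of which 23 were tested. At 4 weeks 8 were higher in DEP and 2 lower, beside 21.7% and 16.4% of all genes. At 8 weeks 5 were higher and 7 lower, beside 20.4% and 16.9%. Between the times 5 of the 23 differed in the positive and 9 in the negative direction, beside 14.8% and 16.1%. In the control channel 7 rose from 4 to 8 weeks and 4 fell, beside 20.5% and 10.4%, and in the DEP channel 3 rose and 5 fell, beside 25% and 18.5% of all genes. The median log2 ratio of the list was -0.02 at 4 weeks and -0.04 at 8 weeks, beside 0.00 and 0.01 over all genes.

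The 4 largest ratios of the list at 4 weeks were those of the output factors that bind D-boxes. Dbp, Tef and Hlf encode activators of the D-box whose own genes the BMAL1 complex drives, and Nfil3 encodes the repressor that competes with them. Dbp had log2 ratios of 1.98, 1.67, 1.57 and 1.56 at 4 weeks and -0.90, -1.03 and -1.24 at 8 weeks. Its means of 1.69 (limma adjusted p = 1.03e-05) and -1.06 (limma adjusted p = 0.000160) made its difference between the times, -2.75 (limma adjusted p = 1.43e-05), larger than that of any clock gene of the core. Dbp in the controls went from 8.26 to 8.47 at 4 weeks to 11.13 to 11.23 at 8 weeks, a log2 difference of 2.84 (limma adjusted p = 6.48e-10), while in DEP it differed by 0.08 (limma adjusted p = 0.566).

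Tef and Hlf had the same course at smaller size. Tef had log2 ratios of 0.98 at 4 weeks (limma adjusted p = 1.15e-05) and -0.54 at 8 weeks (limma adjusted p = 0.000356), and Hlf had log2 ratios of 0.92 (limma adjusted p = 0.000120) and -0.53 (limma adjusted p = 0.00296). Their control levels rose by 1.38 and 1.60 between the times (limma adjusted p = 5.30e-08 and 8.30e-08). Nfil3 went opposite, with log2 ratios of -0.67, -0.69, -0.96 and -1.38 at 4 weeks and 1.37, 1.43 and 0.93 at 8 weeks. Its means were -0.93 (limma adjusted p = 0.00135) and 1.24 (limma adjusted p = 0.000612), and its control level fell by 1.29 between the times (limma adjusted p = 2.63e-05). The DEP level of Nfil3 also differed, rising by 0.88 (limma adjusted p = 0.000383), whereas those of Tef (-0.14) and Hlf (0.15) were not called. Bhlhe40, a repressor that binds E-boxes, had a mean of -0.05 at 4 weeks (limma adjusted p = 0.555) and was lower in DEP at 8 weeks (-0.37, limma adjusted p = 0.00548), and its relative Bhlhe41 was higher at 4 weeks (0.21, limma adjusted p = 0.0332).

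**Figure D4:**
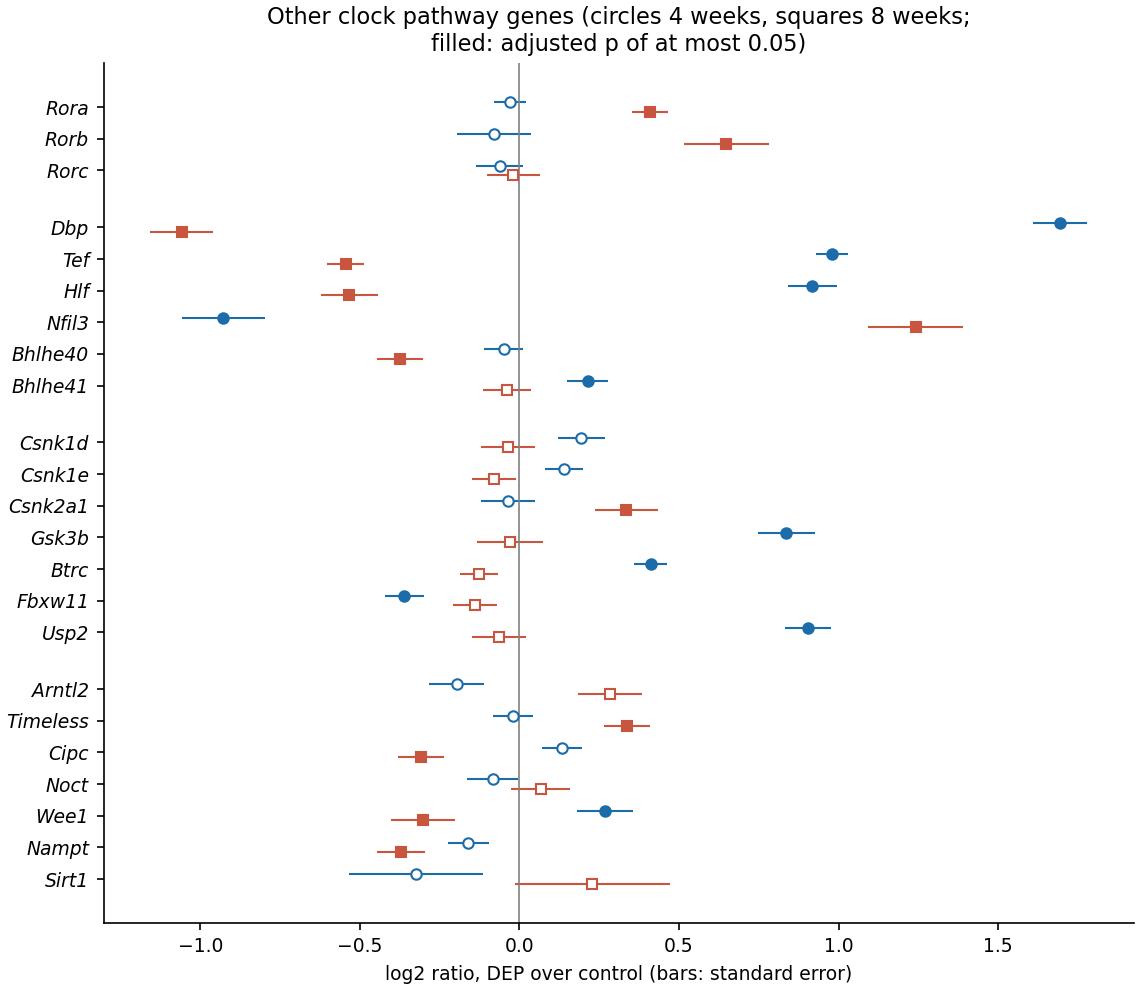
Mean log2 ratio of DEP over control with its standard error for 23 further clock genes, at 4 weeks (circles, 4 arrays) and 8 weeks (squares, 3 arrays), filled where the adjusted p was at most 0.05. Dbp, Tef and Hlf lie right of 0 at 4 weeks and left of it at 8 weeks, from 1.69 to -1.06 for Dbp, and Nfil3 does the reverse, from -0.93 to 1.24.

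The ROR receptors activate Arntl through the element that the REV-ERB receptors use. Of the 3, Rora (0.41, limma adjusted p = 0.00132) and Rorb (0.65, limma adjusted p = 0.00777) were higher in DEP at 8 weeks, as were 20.4% of all genes. At 4 weeks 0 of 3 were called in limma, where 38.1% of all genes were, and 0 of 3 had an unadjusted p under 0.05. Rorb was dim at 4 weeks, with control log2 intensities of 7.35, 5.99, 6.14 and 6.11. Among the 7 tested kinases, ubiquitin ligases and their opponents, which set how long the clock proteins last, 4 were called at 4 weeks and 1 at 8 weeks, beside 38.1% and 37.3% of all genes. Usp2, a ubiquitin protease under clock control, was higher at 4 weeks by 0.90 (limma adjusted p = 9.82e-05), as were the kinase gene Gsk3b (0.84, limma adjusted p = 0.000401) and the ligase gene Btrc (0.41, limma adjusted p = 0.000916), whereas the ligase gene Fbxw11 (-0.36, limma adjusted p = 0.00306) was lower. The 1 call at 8 weeks was the kinase gene Csnk2a1 (0.34, limma adjusted p = 0.0314). Of the 7 other partners and outputs, Wee1, a cell cycle kinase gene known as a clock target, was higher at 4 weeks (0.27, limma adjusted p = 0.0428) and lower at 8 weeks (-0.30, limma adjusted p = 0.0479). Timeless was higher (0.34), and Cipc (-0.31) and Nampt (-0.37) were lower in DEP at 8 weeks (limma adjusted p = 0.00883, 0.0127 and 0.00673).

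Glucocorticoid hormone also follows the day and acts on Per1, so 10 genes that it induces were read beside the clock. At 4 weeks 0 of the 10 were higher in DEP and 3 were lower, Mt2 (-0.69), Errfi1 (-0.56) and Cdkn1a (-0.49), while Fkbp5, one of the most direct of its targets, had a ratio of -0.07 (limma adjusted p = 0.385). Of all genes, 21.7% were higher and 16.4% lower at that time. At 8 weeks 2 were higher, Dusp1 (0.66) and Sgk1 (0.48), and 1 was lower, Mt1 (-0.40), beside 20.4% and 16.9% of all genes. In the control channel 0 of the 10 rose from 4 to 8 weeks and 8 fell, with a median of -0.47 and beside 20.5% and 10.4% of all genes, among them Fkbp5 (-0.77, limma adjusted p = 6.34e-06). In the DEP channel 1 rose and 5 fell, beside 25% and 18.5% of all genes, Fkbp5 among those that fell (-0.79, limma adjusted p = 3.02e-06).

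Markers of tissues and cell types that the sample could hold moved between the groups as well. Their counts stand beside 21.7% of all genes higher and 16.4% lower in DEP at 4 weeks, and 20.4% and 16.9% at 8 weeks. Of 10 genes of mature olfactory sensory neurons, the cells that sense odours, 7 were higher in DEP at 4 weeks and 0 lower, with a median of 0.43, and 0 were higher and 8 lower at 8 weeks, with a median of -0.44. Omp, the olfactory marker protein gene, had means of 0.89 (limma adjusted p = 3.90e-05) and -0.43 (limma adjusted p = 0.00239). All 10 were well above background on every array. Their summed level, on the log2 scale, was 16.36 to 16.56 in control and 17.21 to 17.34 in DEP at 4 weeks, and 17.04 to 17.24 in control and 16.59 to 16.64 in DEP at 8 weeks. In the control channel 8 of the 10 rose between the times and 0 fell (20.5% and 10.4% of all genes), with a median of 0.46. Cry2 and Nr1d2 rose there by 0.52 and 1.19. In the DEP channel 0 of the 10 rose and 5 fell (25% and 18.5%), where Cry2 differed by -0.11 and Nr1d2 by 0.24. In the ratios and the control channel the olfactory genes thus moved in the direction of Cry2 and Nr1d2. Their part in the result for the clock genes was not tested.

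The 7 genes of tooth enamel moved in the direction of Arntl in the ratios. At 4 weeks 0 of 7 were higher in DEP and 6 lower, with a median of -1.33, and at 8 weeks 7 were higher, with a median of 0.92. Their summed log2 level was 13.93 to 14.05 in control and 12.32 to 12.50 in DEP at 4 weeks, where 2 of the 7 were not well above background on any DEP array, and 15.37 to 15.42 in control and 16.15 to 16.55 in DEP at 8 weeks. In the control channel all 7 enamel genes rose between the times (20.5% of all genes did), by a median of 1.34, where Arntl differed by -1.16, so there the directions were opposite. In the DEP channel all 7 also rose (25% of all genes did), by a median of 3.25, where Arntl was higher by 0.44. Their part in the ratios was not tested.

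Of 9 genes of squamous epithelium, 0 were higher in DEP and 9 lower at 4 weeks (median -1.10), and 2 were higher and 4 lower at 8 weeks (median -0.21), with summed log2 levels of 13.04 to 13.12 in control and 11.82 to 11.96 in DEP at 4 weeks, and of 12.67 to 12.83 and 12.12 to 12.34 at 8 weeks. In the control channel 0 of the 9 rose between the times and 6 fell (20.5% and 10.4% of all genes). The median was -0.42, where Arntl differed by -1.16. In the DEP channel 5 rose and 1 fell (25% and 18.5%), with a median of 0.28, where Arntl was higher by 0.44. Of 8 tested neutrophil genes, 1 was higher and 6 lower at 4 weeks (median -0.75) and 1 higher and 5 lower at 8 weeks (median -1.01). In the control channel 2 of these rose and 4 fell between the times (median -0.04). Of 10 skeletal muscle genes, 3 were higher and 2 lower at 4 weeks (median 0.02) and 1 higher and 6 lower at 8 weeks (median -0.46), and in the control channel 0 rose and 5 fell between the times (20.5% and 10.4% of all genes). The part of these lists in the clock values was not tested.

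**Figure D5:**
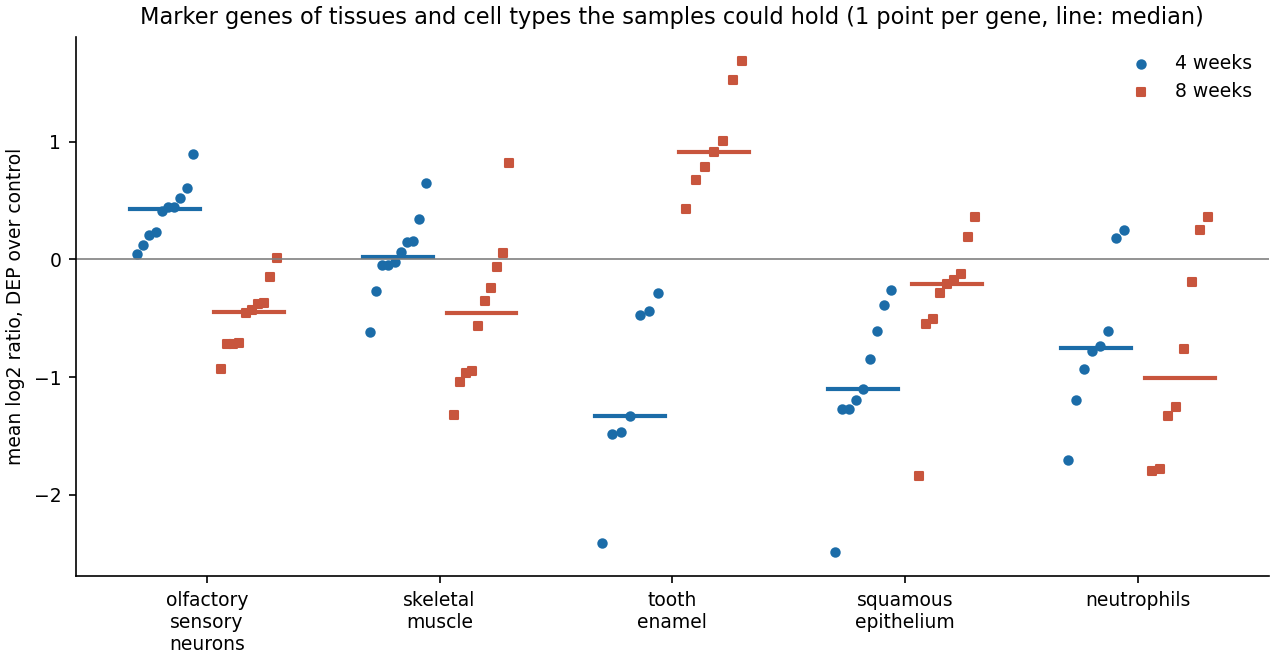
Mean log2 ratio of DEP over control of each tested marker gene, 1 point per gene with a line at the list's median, at 4 weeks (circles) and 8 weeks (squares). Olfactory sensory neuron genes have medians of 0.43 and -0.44, and tooth enamel genes of -1.33 and 0.92.

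Among 15481 other genes measured on all 7 arrays, the ratios most like those of Arntl, by the root mean square difference over the 7 arrays, were of Tnn (0.14), which encodes tenascin N, and of Birc5 (0.18) and Cdc20 (0.20), genes of dividing cells. Nearest to Per1 were Aqp4 (0.17), a water channel gene, Sfi1 (0.17) and Lrrc43 (0.17), and nearest to Per2 were Slc6a17 (0.09), Gmpr (0.10) and Stard10 (0.10). Birc5 had means of -0.88 at 4 weeks and 0.62 at 8 weeks, beside -0.90 and 0.70 for Arntl. None of these 9 is on the list of clock genes.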

How the data were processed

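The authors scanned each 2-colour array with Feature Extraction 10.10.1.1 and deposited its median spot and background intensity values, which are not normalized, its processed intensity values, which are background-subtracted and dye-normalized, and a log10 ratio. The deposited log10 ratio was used only to check the direction of the values (correlation 0.863 to 0.969 by array). From the median intensity values, limma 3.58.1 in R 4.3.3 corrected the background (normexp, offset 50, parameters fitted on spots not marked as background outliers) and normalized each array by loess. Non-uniform spots were left out and repeated spots averaged. A probe was tested where either sample was well above background on 3 or more of the 7 arrays (25162 of 39429), and the brightest tested probe stood for a gene. Ratios were fitted by lmFit and eBayes over all arrays, with p values adjusted over all probes. Levels were fitted over 14 single channels after Aquantile normalization (24816 probes without missing values, spot correlation 0.417).

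The rule for named genes took all members, and genes of the lists by counts, with values for those called. Members and lists were chosen with earlier results of these data known. Confidence intervals are not adjusted for multiple tests. P values measure the spread between arrays, which share a slide within each time. Alternatives were processed intensity values, median centring, other filters and normalizations, the methods' t-test, a replicate block and leaving out each array. Replicate numbers did not pair the arrays (correlation of deviations -0.01 to 0.01). The steps were tested on simulated data. An item of the clock gene list is not reported here.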

Additional observations from a re-analysis of the deposited data

Results flagged for a closer look

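The effect of DEP differed between the exposure times by a test of the difference itself (limma, 8 minus 4 weeks, log2 scale) in 7 of 9 tested clock genes. The difference was 1.60 for Arntl, 0.84 for Clock and 0.58 for Npas2, whose control signal was mostly not well above background, so that its size is not measured. The difference was -0.93 for Per1, -0.63 for Cry2, -0.91 for Nr1d1 and -0.95 for Nr1d2. In each of them the slide cannot be told apart from the exposure time. In the log2 ratios of the 9 tested clock genes, 0 of the 4-week arrays stood apart by Dixon's test, which was not run on the levels of single channels.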

How the results depend on the processing

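Of 609 values of single clock genes under alternatives, 547 kept their direction and their side of the threshold, 32 lost and 15 gained a call, and 15 changed sign, all of them Per1, Per2 or Per3 in comparisons in which they were not called. The 7 differences between the times that were called in Arntl, Clock, Npas2, Per1, Cry2, Nr1d1 and Nr1d2 stayed called under every alternative in which they were computed, and the strictest filter, both samples well above background on every array, left 5 of the clock genes (14819 probes). Per1 at 8 weeks was -0.083 with processed signals and -0.23 with median centring. Per3 changed sign at 8 weeks with median centring (0.0068) and in its difference between the times with normexp fitted on every spot (0.065) or median centring (0.034). The cause was not tested. Median centring moved the median of all genes by -0.20 to 0.02 by array against loess, and processed signals by 0.0009 to 0.10.

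Leaving out each array in turn gave 3 clock genes higher and 1 to 2 lower at 4 weeks, 2 to 3 higher and 2 to 4 lower at 8 weeks, 3 and 4 to 5 in the difference between the times, 4 to 5 and 1 to 3 in the control level, and 1 to 4 and 0 to 2 in the DEP level. All genes called ranged from 5662 to 7919 at 4 weeks, 4469 to 8537 at 8 weeks (fewest without 8-week replicate 2) and 3866 to 6865 in the difference. Single values that changed sign were Per2 at 4 weeks (-0.0090 to 0.25, negative without 4-week replicate 3) and Per3, at 4 weeks (-0.13 to 0.17, positive without 4-week replicate 1), at 8 weeks (-0.19 to 0.050, positive without 8-week replicate 3), in its difference (-0.22 to 0.086, positive without 4-week replicate 2 or 3 or 8-week replicate 2 or 3), in its control level (-0.079 to 0.28, negative without 4-week replicate 2 or 8-week replicate 1) and in its DEP level (-0.25 to 0.20, negative without 8-week replicate 1).

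With normexp fitted on every spot, 1 clock gene was lower at 4 weeks, 5044 genes in all were called there in place of 7871, and the DEP level gave 1 higher and 0 lower. This fit set the background mean of 4-week replicate 2 at -614.5 in DEP in place of -11.7. Without normalization between arrays the DEP level gave 0 higher and 2 lower, and after quantile normalization the control level gave 1 lower. With the methods' t-test after Benjamini-Hochberg, 4388 genes were called at 4 weeks and 4816 at 8 weeks in place of 7704, and Nr1d2 at 8 weeks (adjusted p = 0.0504) and Clock at 8 weeks (adjusted p = 0.284) were not. With its thresholds of p and 2-fold it called 1 clock gene higher and 0 lower at 4 weeks, 0 and 0 at 8 weeks, and 253 and 584 genes in all. With the replicate block, 3218 genes in all were called in the difference between the times in place of 6391, and the 7 clock genes stayed called. Signals near background limit Npas2, Per2, Per3 and Cry1.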
